A study of Mus musculus with 6 samples.

Results

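The 10 genes described here are macrophage genes of the mouse ovary, taken as a fixed list of names: Csf1, Csf1r, Cd68, Lyz2, Mrc1, Itgam, Cd14, C1qa, C1qb and C1qc. They stand among 44788 genes listed in a count table of whole-ovary RNA, and all 10 had enough counts to enter the test, as did 19423 genes in all. The ovaries came from 8-week-old mice on the C57BL/6 J background. In one group of 3 ovaries the mice were wild type (WT), and in the other group of 3 they were homozygous for a truncating allele of Bnc1 (Bnc1tr/tr), which encodes the zinc finger protein basonuclin 1. The allele is a small targeted deletion that shifts the reading frame to an early stop, and it is carried by every cell of the body, blood-derived cells included. The estrous stage of these ovaries is not given in the sources used here.

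Macrophages are the most abundant leukocytes of the ovary, where they lie in the stroma and theca, clear dying granulosa cells of atretic follicles and gather in the corpus luteum as it regresses. Their survival depends on the receptor encoded by Csf1r, which binds colony stimulating factor 1 (Csf1) made mainly by neighbouring cells and also interleukin 34 (Il34). Tissue macrophages are a main source of C1q, the recognition unit of the classical complement pathway, whose A, B and C chains (C1qa, C1qb, C1qc) assemble together and mark antibody complexes and dying cells for removal. In RNA from a whole ovary, fewer macrophages and less of a transcript per macrophage cannot be told apart.

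The sequences around the starts of C1qb, C1qc and Csf1 are given because the results turn on these genes: the C1q genes lie next to each other in one cluster and were compared chain by chain, and Csf1 is the gene of the list whose ovaries did not overlap between genotypes. They are RefSeq promoters of build GRCm38.p6, from 250 bases before to 50 bases after the start, printed 5′ to 3′ along the gene's strand, with positions counted from 1 at the 5′ end. The C1qb window is chr4:136886151-136886450, the C1qc window chr4:136892865-136893164 and the Csf1 window chr3:107760420-107760719, all on the minus strand. Capitals mark exact matches to the 6 motifs searched on both strands, which were GGAAGT and its longer form GAGGAAGT (the type bound by PU.1, the lineage factor of myeloid cells), TGCTGA (a MAF half-site), GGACTTTCC (a kappaB site), TGAGTCA (AP-1) and TATAAA, the box that some promoters hold near their start.
C1qb: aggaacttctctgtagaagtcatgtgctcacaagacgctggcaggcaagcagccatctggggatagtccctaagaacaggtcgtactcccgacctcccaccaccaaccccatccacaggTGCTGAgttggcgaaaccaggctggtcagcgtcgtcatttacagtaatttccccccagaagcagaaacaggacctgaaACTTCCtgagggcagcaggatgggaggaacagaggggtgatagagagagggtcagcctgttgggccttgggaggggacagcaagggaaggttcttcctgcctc
C1qc: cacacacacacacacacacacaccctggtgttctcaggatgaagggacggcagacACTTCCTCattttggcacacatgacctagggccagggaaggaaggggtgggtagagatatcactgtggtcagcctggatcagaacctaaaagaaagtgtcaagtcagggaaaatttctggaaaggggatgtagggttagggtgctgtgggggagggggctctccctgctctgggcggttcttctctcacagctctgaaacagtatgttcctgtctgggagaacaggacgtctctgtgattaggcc
Csf1: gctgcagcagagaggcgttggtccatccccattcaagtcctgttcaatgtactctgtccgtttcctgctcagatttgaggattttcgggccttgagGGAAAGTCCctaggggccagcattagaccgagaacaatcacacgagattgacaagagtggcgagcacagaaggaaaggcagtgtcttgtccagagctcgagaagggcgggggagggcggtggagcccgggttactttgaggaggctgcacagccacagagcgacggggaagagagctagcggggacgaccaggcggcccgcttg

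In the C1qb window GGAAGT was matched on the opposite strand at positions 198 to 203 and TGCTGA on the same strand at 120 to 125. In the C1qc window GAGGAAGT was matched on the opposite strand at 56 to 63, and the match to GGAAGT lies inside it. In the Csf1 window GGACTTTCC was matched on the opposite strand at 97 to 105. Promoters of 7 of the 10 genes were read. GGAAGT was found in 5 of these 7 (C1qb, C1qc, Lyz2, Mrc1 and Cd68) and in 23.8% of 32851 promoters of the same length. The longer GAGGAAGT was in 1 of 7 against 3.20% of all promoters, TGCTGA in 2 of 7 (C1qb and Lyz2) against 19.5%, GGACTTTCC in 1 of 7 against 0.344%, TGAGTCA in 1 of 7 (Cd68, matched at 2 places) against 5.20%, and TATAAA in 0 of 7 against 13.6%. These matches describe letters only, and binding was not measured.

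The libraries held 25247770 to 34406296 counts. Of the 10 genes the smallest count in any ovary was 142 and the largest 9192. Counts of Bnc1 itself were 375, 444 and 381 in the WT ovaries and 527, 355 and 326 with the truncating allele. The deletion does not remove the transcript from the counts, and its level does not check the labels. Oviduct epithelium markers summed to 133 CPM (counts scaled to the normalized library size) in WT replicate 1 and 518 CPM in Bnc1tr/tr replicate 3, against 10.4 to 25.8 CPM in the other ovaries. The study's methods speak of independent samples in its experiments in general, and the labels do not tie each ovary to an animal, so p-values measure the spread between these ovaries.

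With all 6 ovaries compared, none of the 10 listed genes passed the adjusted threshold between WT and Bnc1tr/tr. In the quasi-likelihood test of edgeR, with p adjusted by Benjamini-Hochberg over all genes tested, 0 of 10 passed an adjusted p of 0.05, where 7.06% of all genes did. At an unadjusted p under 0.05 there were 2 of 10 (Csf1 and Csf1r), where 24.2% of all genes tested were, and DESeq2 and limma-voom also called 0. The log2 fold change, Bnc1tr/tr against WT, was negative for 8 of the 10 and for 47.4% of all genes tested, with a median of -0.033 beside 0.018 for all genes tested. That count was 4 of the 10 both with library size alone as the scaling (34.2% of all genes tested) and without the pair of ovaries with high oviduct markers (49.1%), since Cd68, Itgam, Lyz2 and C1qa were then positive. Only Csf1 had groups that did not overlap, where 30.8% of all genes tested did not. The 95% interval of the log2 fold change was narrowest for Csf1 (0.05 to 0.61) and widest for Lyz2 (-0.71 to 0.63), so missing the threshold does not show that levels were equal.

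**Figure D1:**
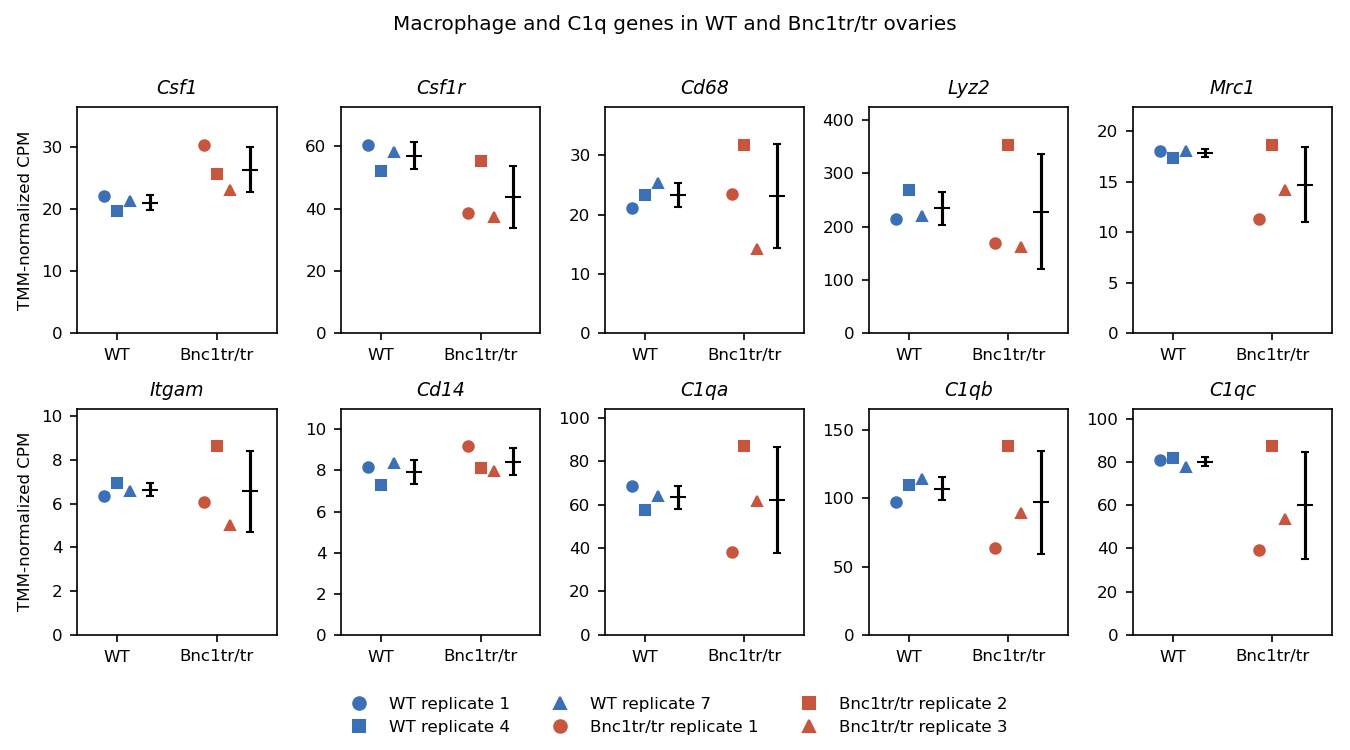
Level of each of the 10 genes in each ovary, in CPM normalized by the trimmed mean of M values (TMM), with the mean and SD (n = 3) as bars beside the points. The Bnc1tr/tr ovaries spread more widely than the WT ovaries for every gene, though only slightly for Cd14, and Bnc1tr/tr replicate 2 was the highest of the 6 ovaries for 7 of 10.

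Within WT ovaries the levels, given per kilobase of union exons so that genes can be compared, spanned from 178 ± 23.2 CPM per kb for Lyz2 to 1.32 ± 0.0594 for Itgam (SD, n = 3). Below Lyz2 came C1qb at 98.4 ± 7.89, C1qa at 60.9 ± 5.21 and C1qc at 41.5 ± 1.14 CPM per kb. Cd68 followed at 18.5 ± 1.63 and Csf1r at 9.86 ± 0.745, and then Cd14 at 4.58 ± 0.331, Csf1 at 3.98 ± 0.223 and Mrc1 at 2.79 ± 0.0639 CPM per kb. The C1q chains and lysozyme thus stood well above the receptors. In Bnc1tr/tr ovaries Csf1 (4.98 ± 0.697) and Cd14 (4.86 ± 0.380) stood in the opposite order, within their spread. C1qb (89.1 ± 34.7), C1qa (59.7 ± 23.5) and C1qc (31.1 ± 12.8 CPM per kb) kept their order within every Bnc1tr/tr ovary, while their ranges over the ovaries overlapped. The order of C1qa and C1qc depends on the length used. With the longest transcript of each gene, C1qc was above C1qa in every WT ovary (30.1, 30.4 and 28.0% of the summed C1q chains against 29.6, 24.7 and 26.6%) and below it in every Bnc1tr/tr ovary (25.5, 25.6 and 24.0% against 28.6, 29.5 and 31.9%).

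Csf1 encodes the growth factor on which macrophages depend (chr3:107741048-107760469, minus strand, GRCm38). Its level was 22, 19.7 and 21.2 CPM in WT replicates 1, 4 and 7 and 30.3, 25.6 and 23.1 CPM in Bnc1tr/tr replicates 1, 2 and 3. Every Bnc1tr/tr ovary was above every WT ovary. The means were 21.0 ± 1.18 and 26.3 ± 3.68 CPM (SD, n = 3), and the log2 fold change of 0.33 (SE 0.12, 95% interval 0.05 to 0.61) did not pass the test (edgeR adjusted p = 0.15). With each ovary left out in turn it stayed positive, at 0.21 to 0.41, with adjusted p of 0.134 to 0.375.

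Csf1r encodes the receptor for Csf1 and Il34 on macrophages. It was counted at 60.5, 52.2 and 58.2 CPM in WT ovaries and at 38.7, 55.3 and 37.4 CPM in Bnc1tr/tr ovaries. Bnc1tr/tr replicates 1 and 3 were below all WT ovaries, and replicate 2 lay among them. The log2 fold change was -0.38 (SE 0.16, 95% interval -0.74 to -0.02, adjusted p = 0.189), and without Bnc1tr/tr replicate 2 it was -0.58 with an adjusted p of 0.0256. It was -0.28 without Bnc1tr/tr replicate 3 (adjusted p = 0.4) and -0.24 without the pair of ovaries with high oviduct markers (adjusted p = 0.611). Part of Csf1r overlaps Hmgxb3 on the opposite strand, and whether the counting used strand is not given in the sources used here.

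The ratio of Csf1 to Csf1r within each library separated the genotypes. There were 0.364, 0.378 and 0.365 counts of Csf1 per count of Csf1r in WT ovaries and 0.782, 0.463 and 0.617 in Bnc1tr/tr ovaries. No Bnc1tr/tr ovary overlapped the WT ovaries, which lay close together. The two-sided exact permutation test gave p = 0.1, the smallest that 3 against 3 allows, and the ratio was chosen after the values were seen. Il34, the other ligand of the receptor, was at 20.4 ± 3.47 CPM in WT and 18.6 ± 5.10 in Bnc1tr/tr ovaries (log2 fold change -0.14, adjusted p = 0.753).

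Cd68, a glycoprotein of the lysosome membrane that macrophages hold in quantity (chr11:69664213-69666153, minus strand), was at 21.2, 23.3 and 25.3 CPM in WT ovaries. In Bnc1tr/tr ovaries it was at 23.5, 31.8 and 14.2 CPM, so that this genotype held both the highest and the lowest ovary. The means were 23.3 ± 2.05 and 23.2 ± 8.78 CPM, with a log2 fold change of -0.0079 (SE 0.26, 95% interval -0.60 to 0.58, adjusted p = 0.988).

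Lyz2 encodes the lysozyme of myeloid cells, which cleaves bacterial cell walls (chr10:117277331-117282321, minus strand). Its level was 214, 270 and 220 CPM in WT ovaries and 170, 354 and 162 CPM in Bnc1tr/tr ovaries. Bnc1tr/tr replicate 2 was above and the other replicates of that genotype below all WT ovaries. The log2 fold change was -0.038 (SE 0.29, 95% interval -0.71 to 0.63, adjusted p = 0.953). Lyz1, a near-identical copy with which reads could be shared, had 0.0209 to 0.0343 counts per count of Lyz2 in WT and 0.00627 to 0.0251 in Bnc1tr/tr ovaries. How reads that match both copies were counted is not given in the sources used here.

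Mrc1 encodes the mannose receptor of tissue macrophages (chr2:14229392-14332057, plus strand). It was steady in WT ovaries at 18.0, 17.3 and 18.0 CPM and spread over 11.3, 18.6 and 14.2 CPM in Bnc1tr/tr ovaries, of which replicates 1 and 3 were below all WT ovaries. The log2 fold change was -0.27 (SE 0.17, 95% interval -0.68 to 0.13, adjusted p = 0.381). It was -0.12 without Bnc1tr/tr replicate 1 (adjusted p = 0.652) and -0.48 without Bnc1tr/tr replicate 2 (adjusted p = 0.082).

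Itgam encodes the alpha chain of complement receptor 3 (chr7:128062640-128118491, plus strand), which takes up particles coated with complement. It was at 6.36, 6.95 and 6.59 CPM in WT ovaries and 6.08, 8.62 and 5.01 CPM in Bnc1tr/tr ovaries, with Bnc1tr/tr replicate 2 above and replicates 1 and 3 below all WT ovaries. The log2 fold change was -0.015 (SE 0.21, 95% interval -0.51 to 0.48, adjusted p = 0.976). Its partner chain Itgb2 was at 15.2 ± 0.773 CPM in WT and 16.2 ± 4.10 CPM in Bnc1tr/tr ovaries (log2 fold change 0.094, adjusted p = 0.798).

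Cd14 encodes the surface co-receptor that hands bacterial endotoxin to the receptor of Tlr4 and Ly96. Its level was 8.18, 7.28 and 8.35 CPM in WT ovaries and 9.18, 8.12 and 7.97 CPM in Bnc1tr/tr ovaries, and the groups overlapped. The log2 fold change was 0.086 (SE 0.14, 95% interval -0.23 to 0.40, adjusted p = 0.741). Tlr4 (4.18 ± 0.284 against 4.13 ± 0.286 CPM, adjusted p = 0.97) and Ly96 (3.35 ± 0.530 against 2.79 ± 0.422 CPM, adjusted p = 0.514) did not pass the test either.

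The C1q genes lie side by side on the minus strand of chromosome 4 (GRCm38), C1qb at chr4:136880129-136886187, C1qc at chr4:136889804-136893065 and C1qa at chr4:136895917-136898803. C1qa was at 68.4, 57.6 and 63.8 CPM in WT ovaries and at 38.0, 86.9 and 61.5 CPM in Bnc1tr/tr ovaries. C1qb was at 97.6, 109 and 114 CPM in WT ovaries and at 63.8, 138 and 89.0 CPM in Bnc1tr/tr ovaries. C1qc was at 80.7, 82.0 and 77.7 CPM in WT ovaries and at 39.1, 87.2 and 53.6 CPM in Bnc1tr/tr ovaries.

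For each of the C1q chains Bnc1tr/tr replicate 2 was the highest of all ovaries and replicate 1 the lowest, with the WT ovaries between them. Replicate 3 was below all WT ovaries for C1qb and C1qc and among them for C1qa. The log2 fold changes were -0.027 for C1qa (SE 0.26, adjusted p = 0.963), -0.14 for C1qb (SE 0.25, adjusted p = 0.764) and -0.42 for C1qc (SE 0.25, 95% interval -1.01 to 0.17, adjusted p = 0.358). Without Bnc1tr/tr replicate 2 that of C1qc was -0.79, with an adjusted p of 0.0297. Without Bnc1tr/tr replicate 1, the lowest ovary, it was -0.19, with an adjusted p of 0.595.

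The levels of the chains overlapped between genotypes, but the share of C1qc did not. Taking the CPM per kb of the 3 chains as shares of their sum in each ovary, C1qc made up 21.2, 21.4 and 19.5% in WT ovaries and 17.5, 17.7 and 16.4% in Bnc1tr/tr ovaries. Every Bnc1tr/tr ovary was below every WT ovary, replicate 2 with its high C1q level included. The mean share was 20.7 ± 1.06% in WT and 17.2 ± 0.671% in Bnc1tr/tr ovaries (SD, n = 3), a difference of -3.47 percentage points with a two-sided exact permutation p of 0.1, the smallest this design allows.

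The shares of the other chains overlapped between genotypes. C1qb made up 45.5, 50.7 and 50.8% in WT ovaries and 50.8, 49.6 and 48.5% in Bnc1tr/tr ovaries (exact permutation p = 0.9). C1qa made up 33.4, 27.9 and 29.7% in WT ovaries and 31.6, 32.7 and 35.1% in Bnc1tr/tr ovaries (exact permutation p = 0.3). The size of the difference in the C1qc share depended on the length used, being -4.48 percentage points with the longest transcript of each gene and -4.69 with no length. A gene's length is the same in every ovary, so these values are not a further check on the direction of the difference.

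Ratios of raw counts restate the shares from the same counts, and so are not a further check on the separation of C1qc. There were 1.18, 1.42 and 1.22 counts of C1qc per count of C1qa in WT ovaries and 1.03, 1.0 and 0.871 in Bnc1tr/tr ovaries. Against C1qb the counts of C1qc were 0.827, 0.749 and 0.680 in WT ovaries and 0.613, 0.632 and 0.602 in Bnc1tr/tr ovaries. In both ratios all WT ovaries were above all Bnc1tr/tr ovaries, while the ratio of C1qb to C1qa overlapped. The union of annotated C1qc exons (1931 bases) is longer than its longest transcript (1203 bases), and a change of isoform or of the transcript's end was not tested.

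**Figure D2:**
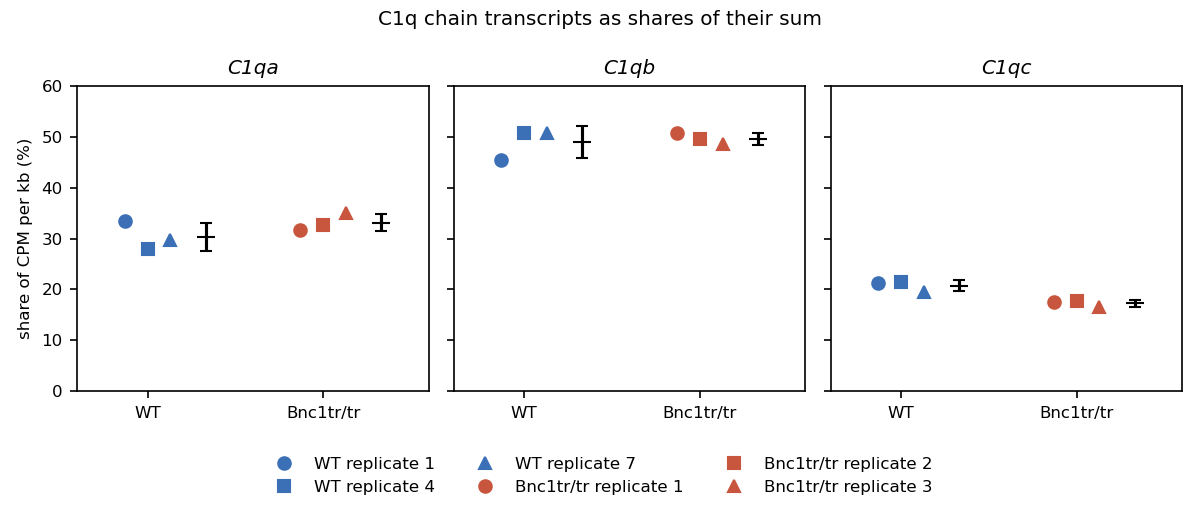
Share of each C1q chain in the summed CPM per kb of C1qa, C1qb and C1qc in each ovary, in percent, with the mean and SD (n = 3) beside the points. The C1qc share was 16.4 to 17.7% in Bnc1tr/tr ovaries and 19.5 to 21.4% in WT ovaries, while the C1qa and C1qb shares overlapped.

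What the 10 genes had in common was a larger spread among Bnc1tr/tr than among WT ovaries, though for Cd14 the spreads were close. The coefficient of variation was larger in Bnc1tr/tr than in WT ovaries for 10 of 10, where it was larger for 60.8% of all genes tested. It ran from 2.29 to 13% in WT and from 7.82 to 47.5% in Bnc1tr/tr ovaries, beside medians of 10.5% and 13.4% over all genes tested. Bnc1tr/tr replicate 2 was the highest of the 6 ovaries for 7 of the 10 genes, against 14.6% of all genes tested, the exceptions being Csf1r (highest in WT replicate 1) and Csf1 and Cd14 (highest in Bnc1tr/tr replicate 1). Bnc1tr/tr replicates 1 and 3 were both below every WT ovary for 6 of the 10, against 21.6% of all genes tested. These counts were made after the values were seen, and the genes share their libraries, so they are not independent.

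Leaving out Bnc1tr/tr replicate 2 brought Csf1r and C1qc past the threshold, 2 of 10 where 6.40% of 20040 genes tested were called, and moved the median log2 fold change of the list from -0.033 to -0.42. With any other ovary left out 0 of 10 passed. Bnc1tr/tr replicate 2 had an oviduct marker sum of 25.8 CPM and the smallest total of the 6, at 25247770 counts. Without the pair of ovaries with high oviduct markers 0 of 10 passed as well.

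**Figure D3:**
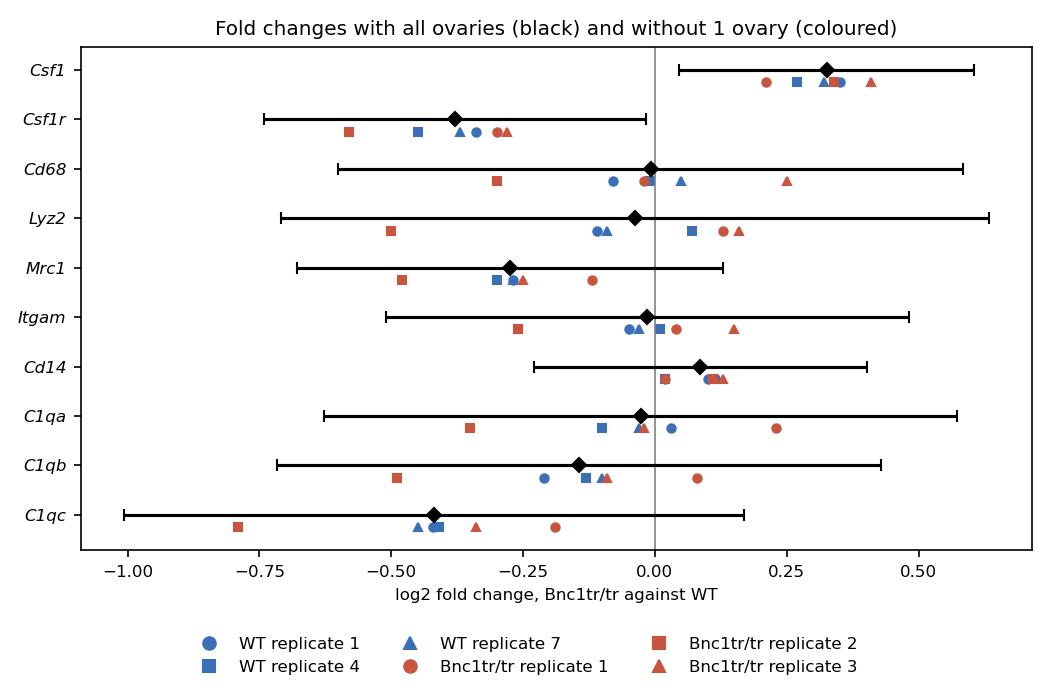
Log2 fold change of each of the 10 genes, Bnc1tr/tr against WT, with all 6 ovaries (black, bars are 95% intervals) and with each ovary left out in turn (coloured points). The points without Bnc1tr/tr replicate 2 lie lowest for 8 of the genes, at -0.58 for Csf1r and -0.79 for C1qc, while Csf1 stays above 0 throughout.

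The genes whose pattern over the 6 ovaries was most like the mean log2 CPM of the C1q chains were Ly86, which encodes a myeloid surface protein (Pearson r = 0.999), Tulp3 (0.996), Slc27a3 (0.996), Tspan17 (0.992) and Grtp1 (0.990), among 13070 genes with a mean of at least 5 CPM. None of them passed the test between genotypes. Ly86 was at 6.36, 6.34 and 6.31 CPM in WT ovaries and at 3.63, 7.81 and 5.25 CPM in Bnc1tr/tr ovaries, the order that the C1q chains had in the latter. Among the members outside C1q, r with the C1q mean was 0.969 for Mrc1, 0.804 for Lyz2, 0.784 for Csf1r, 0.636 for Itgam and 0.407 for Cd68, and it was negative for Csf1 (-0.60) and Cd14 (-0.61). These are descriptions over 6 ovaries that share their libraries, and Bnc1tr/tr replicates 1 and 2 set most of the range. Without those replicates r was 0.0652 for Cd14, -0.65 for Csf1 and 0.969 for Cd68. It was then 0.249 for C1qa, itself 1 of the chains in the mean, against 0.948 with all ovaries.

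The genes around the members in their pathways were mostly not called either. Of 16 genes of Csf1 receptor signalling and myeloid lineage control, 0 passed by edgeR, 4 had an unadjusted p under 0.05 (24.2% of all genes tested did), DESeq2 called 1 and limma-voom 0. The median log2 fold change of these genes was -0.14, and 13 of the 16 were negative, beside 47.4% of all genes tested.

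Of 40 other macrophage genes tested, 2 were called higher and 0 lower (5% of those tested, beside 7.06% of all genes). With at least 10 counts required in every ovary, 1 was called. Lyve1, a hyaluronan receptor of some resident macrophages and of lymphatic endothelium, rose from 8.37 ± 0.965 to 16.4 ± 3.78 CPM (log2 fold change 0.97, edgeR adjusted p = 0.0247), and the call was lost without any 1 of the WT ovaries (adjusted p 0.0778 to 0.0983). Marco, a scavenger receptor, had 3, 5 and 5 counts in WT ovaries and 29, 43 and 40 counts in Bnc1tr/tr ovaries. It passed the count filter only through the Bnc1tr/tr ovaries, where it was high, so nothing is drawn from its call. Its mean was below the minimum set for named genes, and it was named after its values were seen. Adgre1 (Emr1 in the table), the F4/80 antigen, was at 14 ± 1.90 and 10.8 ± 3.11 CPM (log2 fold change -0.38, adjusted p = 0.314). Cx3cr1, a chemokine receptor, had a log2 fold change of -0.16 (adjusted p = 0.762), and Mertk, a receptor for dying cells, one of 0.30 (adjusted p = 0.409). The list shared the split seen in the members: Bnc1tr/tr replicate 2 was highest for 22 of the 40 genes, and leaving it out moved the median from -0.012 to -0.31 and the negative values from 22 to 32.

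Of 36 other complement genes tested among 43 listed, 2 rose and 2 fell, 11.1% of those tested, beside 7.06% of all genes. Cd93, a surface protein of endothelial and myeloid cells once described as a C1q receptor, fell from 101 ± 3.31 to 49.0 ± 6.01 CPM (log2 fold change -1.05, adjusted p = 0.00269). Colec11, a lectin that starts the lectin pathway, fell from 33.9 ± 5.78 to 18.2 ± 1.93 CPM (log2 fold change -0.90, adjusted p = 0.0137), and the call was lost without WT replicate 4 (adjusted p 0.0793) or WT replicate 7 (0.0502). C7, of the terminal pathway, rose from 5.72 ± 0.905 to 11.1 ± 3.15 CPM (adjusted p = 0.0461), and Cd55, a complement inhibitor on cell surfaces, rose from 15.3 ± 2.16 to 23.1 ± 1.86 CPM (adjusted p = 0.0386). The calls of C7 and Cd55 were lost with any 1 ovary left out (adjusted p 0.0505 to 0.153 and 0.0522 to 0.121).

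The proteases that bind C1q, C1ra and C1s1 (C1s in the table), did not pass the test, at log2 fold changes of 0.25 (adjusted p = 0.328) and 0.31 (adjusted p = 0.235). C3, the hub of the complement cascade, varied widely, at 127, 36.9 and 109 CPM in WT ovaries and 210, 257 and 96.5 CPM in Bnc1tr/tr ovaries (log2 fold change 1.04, adjusted p = 0.235). Its log2 fold change was 0.66 without WT replicate 4 (adjusted p = 0.436) and 1.67 without the pair of ovaries with high oviduct markers (adjusted p = 0.16). C4b was at 17.5 ± 5.79 and 26.9 ± 9.91 CPM (log2 fold change 0.62, adjusted p = 0.289). Without the pair of ovaries with high oviduct markers its log2 fold change was 1.17 with an adjusted p of 0.0406, and without WT replicate 4 it was 0.42 (adjusted p = 0.59).

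Among 28 genes for the uptake of dying cells, 1 rose and 1 fell (7.14%, beside 7.06% of all genes). Itgav, an integrin chain, rose from 95.8 ± 6.07 to 130 ± 13 CPM (adjusted p = 0.0415), a call lost with any 1 ovary left out (adjusted p 0.0591 to 0.169). Scarb1 fell from 2574 ± 216 to 709 ± 66.1 CPM (log2 fold change -1.86, adjusted p = 4.08e-04). Scarb1 binds dying cells and is also the receptor for high density lipoprotein on steroid-making cells.

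Among 16 lysosome genes, Npc2, which carries cholesterol out of lysosomes, fell from 648 ± 80.6 to 315 ± 21.5 CPM (log2 fold change -1.04, adjusted p = 0.00367), and 0 rose (6.25% called, beside 7.06% of all genes). Without Bnc1tr/tr replicate 2 the lysosome genes called were 3, all lower (Npc2 and the proteases Ctsd and Ctss, at log2 fold changes of -1.09, -0.64 and -0.60), and 14 of 16 were negative instead of 10. DESeq2 called 3 with all ovaries. Among 18 tested genes of endotoxin sensing and cytokines, 2 rose and 0 fell (11.1%, beside 7.06% of all genes). These were Nos2, which makes nitric oxide, from 82.4 ± 9.05 to 160 ± 43.0 CPM (log2 fold change 0.96, adjusted p = 0.0253), and Lbp, the serum protein that carries endotoxin to Cd14, from 18.7 ± 0.856 to 33.7 ± 9.29 CPM (log2 fold change 0.85, adjusted p = 0.0346). Both calls were lost without any 1 of the WT ovaries (adjusted p 0.0635 to 0.125 for Nos2 and 0.0929 to 0.155 for Lbp).

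**Figure D4:**
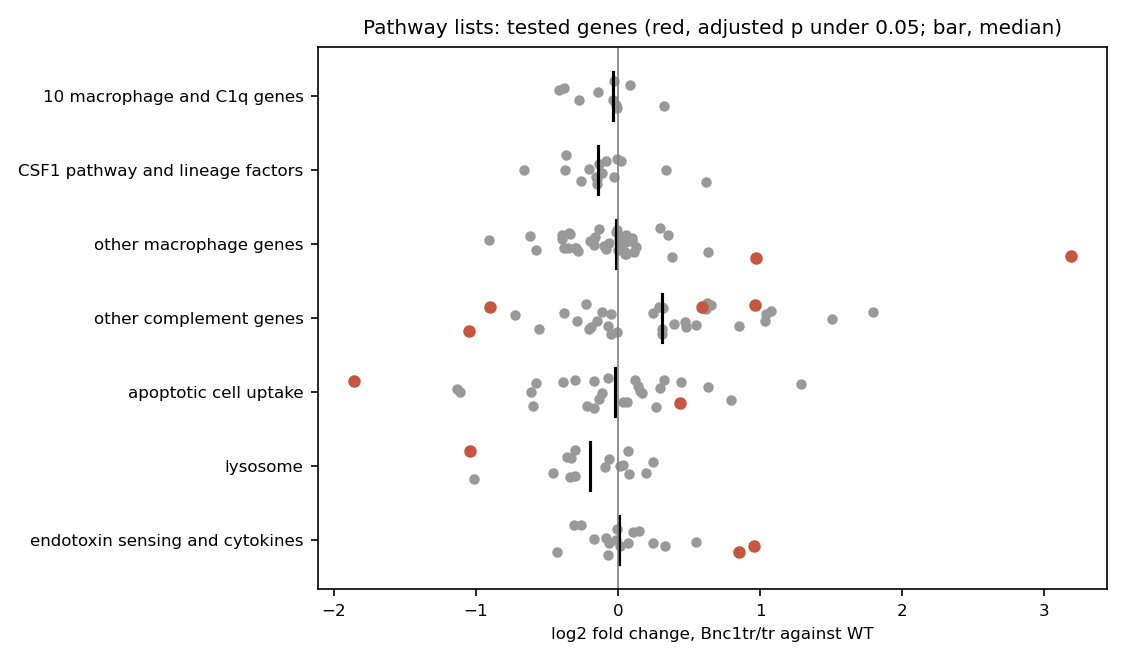
Log2 fold change, Bnc1tr/tr against WT, of every tested gene in the 10-gene list and 6 pathway lists, with the median as a bar and genes past an adjusted p of 0.05 in red. No member is red, and the red points of the other lists lie on both sides of 0.

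Markers of other cells were summed in each ovary to set beside the members. The 10 genes summed to 597, 645 and 614 CPM in WT ovaries and to 430, 814 and 467 CPM in Bnc1tr/tr ovaries. Most of this sum came from Lyz2, C1qb, C1qc and C1qa, with WT means of 235, 107, 80.1 and 63.3 CPM. Csf1 and Cd14, with WT means of 21.0 and 7.94 CPM, added little to it. The 8 pan-leukocyte markers summed to 126 to 146 CPM in WT ovaries and to 86.9, 133 and 102 CPM in Bnc1tr/tr replicates 1, 2 and 3, with 0 of 8 called, beside 7.06% of all genes (2 at an unadjusted p under 0.05, 1 by DESeq2, 0 by limma-voom). Among Bnc1tr/tr ovaries both sums were highest in replicate 2 and lowest in replicate 1, though replicate 2 was the highest of all ovaries for 2 of the 8 pan-leukocyte markers. Ptprc, the common leukocyte antigen, was at 9.18, 8.58 and 6.79 CPM in WT ovaries and at 3.59, 8.39 and 4.41 CPM in Bnc1tr/tr ovaries (log2 fold change -0.59, adjusted p = 0.301). Without Bnc1tr/tr replicate 2 its log2 fold change was -1.03 with an adjusted p of 0.0385. It was -0.36 without Bnc1tr/tr replicate 1 (adjusted p = 0.504) and -0.37 without the pair of ovaries with high oviduct markers (adjusted p = 0.713).

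The corpus luteum, a site where ovarian macrophages gather, had the largest share of markers called among the marker lists, 80%. Over all genes tested 7.06% were called and 24.2% had an unadjusted p under 0.05, and the counts that follow stand beside these shares. Its 10 markers summed to 23411 to 28108 CPM in WT ovaries and 7357 to 12733 CPM in Bnc1tr/tr ovaries, and 8 of 10 fell, Scarb1 among them. Among Bnc1tr/tr ovaries the luteal sum was also highest in replicate 2 and lowest in replicate 1. Endothelial markers summed to 675 to 878 CPM in WT and 472 to 554 CPM in Bnc1tr/tr ovaries (Pecam1, Cdh5, Kdr and Tek fell and Vwf rose, of 8), again with replicate 2 the highest of its genotype and replicate 1 the lowest. Oocyte and granulosa markers ran the other way within Bnc1tr/tr, lowest in replicate 2. Oocyte markers summed to 526 to 690 CPM in WT ovaries and 994, 657 and 1000 CPM in Bnc1tr/tr replicates 1, 2 and 3 (Gdf9, Bmp15 and Oosp1 rose, of 10), and granulosa markers to 3680 to 4828 and to 6348, 4105 and 5845 CPM (Amh rose, of 10). The share of granulosa markers called, 10%, was near that of all genes. Theca and stroma markers summed to 1915 to 2139 CPM in WT ovaries and 1886, 2814 and 2492 CPM in Bnc1tr/tr replicates 1, 2 and 3. Replicates 2 and 3 were above and replicate 1 below every WT ovary, whereas the sum of the members in replicate 3 was below every WT ovary. Of the 8 theca and stroma markers 0 were called by edgeR (2 at an unadjusted p under 0.05, 2 by DESeq2, 0 by limma-voom). Fat markers summed to 14 to 49.0 CPM in WT ovaries and 245, 141 and 27.0 CPM in Bnc1tr/tr replicates 1, 2 and 3. Without the pair of ovaries with high oviduct markers 4 of 10 luteal markers and 0 of the endothelial, oocyte and granulosa markers were called. In that setting 304 genes were called in all, against 1372 with all ovaries. With Bnc1tr/tr replicate 2 left out, 6 luteal and 3 endothelial markers were called lower, and 4 oocyte and 2 granulosa markers higher, where 6.40% of all genes tested were called. What part luteal tissue, vessels, follicles, stroma or adhering fat had in the levels of the members was not tested.

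**Figure D5:**
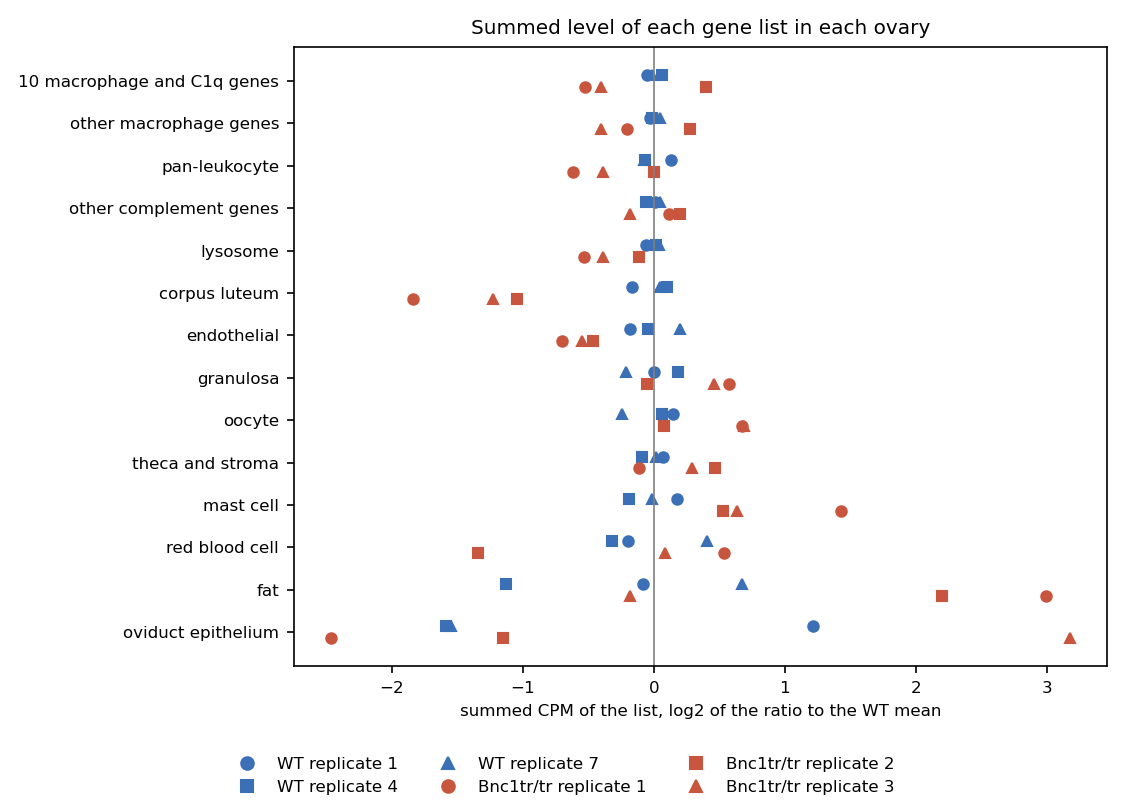
Summed CPM of the 10 genes, other macrophage, complement and lysosome genes and markers of other cells in each ovary, as the log2 ratio to the mean of the WT ovaries. For the sum of the 10 genes, most of it from Lyz2 and the C1q chains, Bnc1tr/tr replicate 2 lies above and replicates 1 and 3 below the WT ovaries. The corpus luteum sum is below WT in every Bnc1tr/tr ovary.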

How the data were processed

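RNA of whole ovaries (3 WT, 3 Bnc1tr/tr) was sequenced single-end by the authors on an Ion Proton (total RNA kit), and the deposited table holds raw read counts per gene. The submitters' processing notes list the mouse build mm10 and a pig build, with no role given, and mm10 was taken as the build of these mouse counts. The aligner, counter and strand handling are not given in the sources used here. Groups came from the labels. Counts were tested with edgeR 4.0.16 (quasi-likelihood F test, TMM, filterByExpr with a minimum count of 10, two-sided, Benjamini-Hochberg over 19423 genes, threshold 0.05). The SE is the absolute log2 fold change over the square root of F, and intervals are 95%. CPM is TMM-normalized, and CPM per kb uses the union of exons in GENCODE M21 (GRCm38). Shares and ratios were tested by exact permutation. Alternatives were other scalings and filters, DESeq2 1.42.0, limma-voom (limma 3.58.1) and each ovary left out. The members and gene lists were chosen with earlier results of these data known. Named genes were the members, 12 fixed partners, up to 3 called genes per pathway list and direction (mean of at least 1 CPM) and the 5 genes most like the C1q mean. Replicate libraries differed beyond sampling noise (chi-square per degree of freedom 17.0 to 64.4).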

Additional observations from a re-analysis of the deposited data

How the results depend on the processing

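Of 480 values (32 genes, 15 alternatives, of which the one without the pair of ovaries with high oviduct markers was chosen after seeing the data), 414 kept their direction and their side of the threshold. Genes called over all tested were 1372, against 2420 with DESeq2, 304 without the oviduct pair and 320 to 1282 with 1 ovary left out. Members called were 0, and 0 to 2 with 1 ovary left out. Other macrophage genes called were 2, against 1 with at least 10 counts in every ovary, 1 without the oviduct pair and 1 to 3 with 1 ovary left out, and complement genes called were 4, against 1 to 3 with 1 ovary left out. Uptake genes called were 2, against 4 with library size only, 4 with no filter, 7 with DESeq2, 1 without the oviduct pair and 1 with any 1 ovary left out. The C1qc share differed by -3.47 percentage points, and by -4.69 with no length. Library size alone moved the median of all genes from 0.018 to 0.12 and turned Cd68 (0.09), Itgam (0.08), Lyz2 (0.06), C1qa (0.07) and Tlr4 (0.08) positive. Without the oviduct pair Cd68 (0.18), Itgam (0.11), Lyz2 (0.09), C1qa (0.03) and Cx3cr1 (0.05) were positive, C4b was called, and the calls of Lyve1, C7, Cd55, Itgav, Nos2 and Lbp were lost (adjusted p 0.0681 to 0.224). Their log2 fold changes were then 1.06, 1.14, 0.56, 0.52, 1.02 and 0.60 in that order, against 0.97, 0.96, 0.59, 0.44, 0.96 and 0.85 with all ovaries. The call of C7 was also lost with limma-voom (adjusted p 0.054). With 1 ovary left out the sign also turned for Cd68 (-0.30 to 0.25), Itgam (-0.26 to 0.15), Lyz2 (-0.50 to 0.16), C1qa (-0.35 to 0.23), C1qb (-0.49 to 0.08), Il34 (-0.28 to 0.08), Itgb2 (-0.04 to 0.29), Cx3cr1 (-0.55 to 0.04) and Tlr4 (-0.08 to 0.03). The cause was not tested. With 3 ovaries a group, an exact permutation test cannot give less than 0.1. No paired analysis was possible because the genotypes share only replicate number 1 and, although the study compared littermates, the labels do not say which ovaries share a litter.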

Other observations

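T cell markers summed to 14.7 to 20.2 CPM in WT and 10.7 to 14.2 CPM in Bnc1tr/tr ovaries, with 0 of 6 tested markers called (2 at an unadjusted p under 0.05, 0 by DESeq2 and 0 by limma-voom). The T cell sums did not overlap between genotypes, and 30.8% of all single genes tested did not. Dendritic cell markers did not overlap either, at 49.1 to 53.8 CPM in WT and 43.5 to 47.2 CPM in Bnc1tr/tr ovaries. Over all genes tested 7.06% were called and 24.2% had an unadjusted p under 0.05. Mast cell markers stood the other way, at 44.0 to 56.8 CPM in WT and 72.4 to 135 CPM in Bnc1tr/tr ovaries, with 0 of 5 tested called by edgeR (3 at an unadjusted p under 0.05, 1 by DESeq2, 0 by limma-voom) and a median log2 fold change of 1.08. The mast cell list includes Kit, and what each marker gave to the sum is not shown, so the sum is not a measure of mast cell number. Neutrophil markers summed to 11.3 to 18.1 CPM in WT ovaries and to 7.22, 9.47 and 41.7 CPM in Bnc1tr/tr replicates 1, 2 and 3, and 3 of the 10 markers had no count in any ovary. Of the 4 that could be tested 1 was called, 25% beside 7.06% of all genes. This was Mpo, higher in Bnc1tr/tr ovaries (log2 fold change 4.18, edgeR adjusted p = 0.00269). Whether Mpo passed the count filter only through the Bnc1tr/tr ovaries is not shown, so nothing is drawn from its call. The high neutrophil sum was in the ovary with the highest oviduct markers, not in Bnc1tr/tr replicate 2, where 7 of the 10 macrophage and C1q genes were highest.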
